A study of Mus musculus with 30 samples.

Results

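The interval between 14 and 28 days post-injury (dpi) was examined by a direct comparison of the denervated cervical cord at these 2 time points, without the sham animals standing between them. Of the 29 animals with values, the 5 labelled 28d were compared with the 5 labelled 14d, and all 16995 genes in the deposited table entered the comparison. Every animal was a female adult C57BL/6 mouse with no engineered allele. At both time points the mice had received a photothrombotic stroke of the right sensorimotor cortex, made by illuminating the skull after injection of the dye Rose Bengal. The tissue was the intermediate laminae of the cervical cord at C5 to C6 on the side that had lost its corticospinal input, cut out under a microscope and sequenced as bulk RNA. Sham animals, labelled Ctrl, and the 42 dpi animals, 5 of each, are given for context. The 5 animals of each time point had been chosen by the study from a larger set by quality checks, so the spread among them may be narrower than that among all operated animals. In bulk tissue, fewer cells of a type and less RNA per cell cannot be told apart.

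The intermediate laminae receive most corticospinal axons and hold the interneurons that relay cortical commands to motor neurons. After a cortical stroke these axons degenerate, and fibres from the intact hemisphere can sprout across the midline into the vacated territory over the following weeks. Ribosomal proteins and the subunits of the respiratory chain and proteasome are the common machinery for making, powering and clearing proteins, and they are made from short transcripts, whereas scaffold proteins of the synapse, ion channels and chromatin regulators are made from long ones.

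The value of Rn18s-rs5, a copy of 18S ribosomal RNA that the depletion step should remove, separated animals within both time points. It was 95113.7, 419050, 32753.5, 40690.7 and 817780 at 14 dpi and 417970, 779160, 44755.2, 291950 and 323192 at 28 dpi. Values above 250000 were thus found in 2 of 5 animals at 14 dpi and in 4 of 5 at 28 dpi. The sham animals ranged from 30320.8 to 52929.1. The means, 281077 at 14 dpi and 371406 at 28 dpi, were not distinguished (exact permutation test, two-sided, p = 0.651). With 5 animals per group this does not show equal levels. The log2 fold change of Rn18s-rs5 was 0.49 to 1.65 with 1 animal left out. The deposited values give no read counts, so depth per animal is unknown. The animal labels begin with A5 or A6 at 14 dpi and with A3 or A4 at 28 dpi, so that whatever these units stand for cannot be told apart from the time point. Markers of the tissue were present in every animal: the summed level of 4 neuronal markers was 2196.5 to 2402.8 units of normalised CPM (read counts scaled to library size) at 14 dpi and 1561.9 to 2023.8 at 28 dpi, and that of 6 oligodendrocyte markers was 6270.5 to 7780.6 and 4475.7 to 6586.9. Red cell and pituitary markers were low in both groups (summed levels 4.7 to 14.8 and 1.2 to 7.7 at 14 dpi, 2.5 to 18.7 and 0.2 to 14.4 at 28 dpi). The summed pituitary markers were at 0.2 to 0.7 in the sham animals, below every 14 dpi animal.

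From 14 to 28 dpi 2002 genes passed both an adjusted p under 0.05 (limma, Benjamini-Hochberg) and a fold change over 1.5 on the log2(value + 0.5) scale, and these are referred to as called. Of the genes tested 11.8% were called, 1284 (7.56%) higher at 28 dpi and 718 (4.22%) lower. The median log2 fold change over all genes was 0.02, that of the genes called higher was 0.73 and that of the genes called lower was -0.70. A fold change over 2 was rarer and mostly upward, with 130 genes higher and 23 lower. Of all genes 22% had no overlap between the 2 time points, and of the called genes 1283. The split of calls by direction depended on the scaling: with every animal rescaled to the same sum of values, ribosomal RNA left out, 445 genes were called higher and 1690 lower, and the median of all genes moved to -0.15; with ribosomal RNA kept in the sum, 81 genes were called higher and 635 lower, with a median of -0.22. Changes below are on the deposited scale, and groups are read against the median of all genes.

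**Figure D1:**
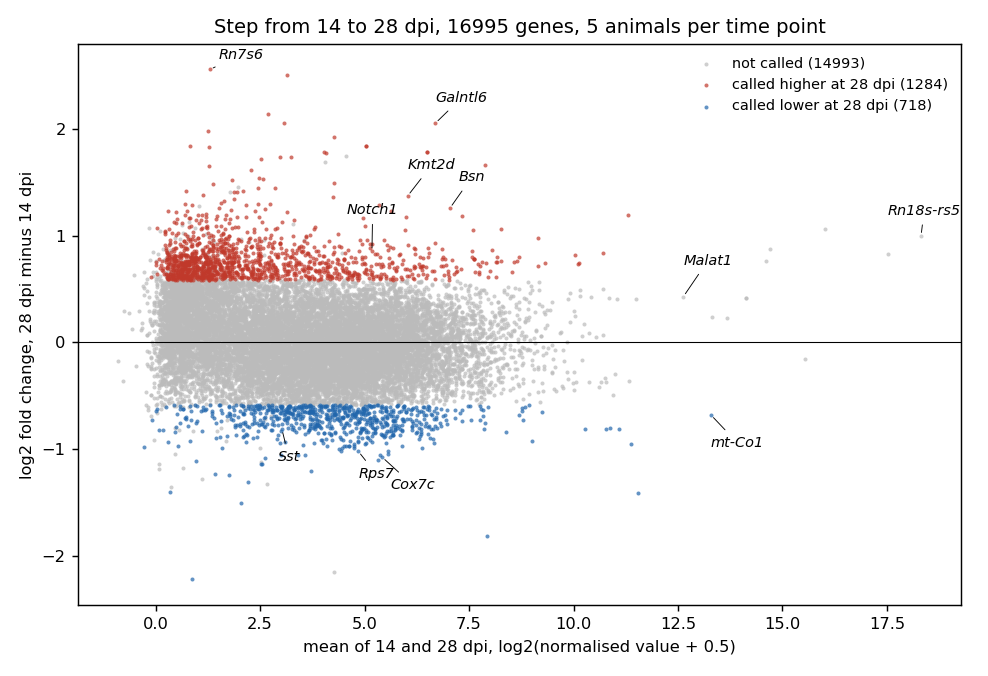
Each point is 1 of 16995 genes, with the mean log2(value + 0.5) of the 10 animals on the x axis and the log2 fold change, 28 dpi minus 14 dpi, on the y axis. The 1284 genes called higher spread over low and middle levels, while the 718 genes called lower reach the high levels.

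The median log2 fold change of the genes called higher was -0.18 for 14 dpi minus sham, 0.57 for 28 dpi minus sham and -0.30 for 42 minus 28 dpi. For the genes called lower the same medians were 0.29, -0.43 and 0.35. By the same criteria, 14 dpi against sham gave 0 genes higher and 1 lower (0% and 0.00588% of all genes), with 28 dpi against sham giving 706 higher and 83 lower (4.15% and 0.488%) and 42 against 28 dpi giving 10 higher and 28 lower (0.0588% and 0.165%). These comparisons share animals with each other and with the step, and the called genes were chosen by their difference between 14 and 28 dpi, which draws the means of other groups between these, so the values are given side by side only.

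The genes that fell were led by the 2 gene groups that supply translation and respiration. Of 83 cytosolic ribosomal protein genes measured, 68 fell and none rose, with a median log2 fold change of -0.76. Of 78 nuclear-encoded subunits of oxidative phosphorylation, 58 fell and none rose, with a median of -0.77. These shares stood beside 4.22% of all genes called lower. The median longest transcript was 1049 bases in the ribosomal group and 1135 bases in the respiratory group, against 3494 bases over all protein-coding genes. With a correction for transcript length and GC content fitted over all genes, 53 ribosomal and 49 respiratory genes were called lower. The correction did not level protein-coding genes of these lengths. Their mean log2 fold change after it was -0.34 between 500 and 1000 bases and -0.17 from 1000 to 2000 bases. The part of length in the fall was therefore not tested by these counts.

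The starts of these genes are shown because a group of genes that fall together can be compared by the letters around their transcription starts. Ribosomal protein genes often start within a run of pyrimidines (a 5′ terminal oligopyrimidine tract), and many genes of translation and respiration carry sites for ETS factors or NRF1. Among the genes measured, 11812 had a 300-base window (250 before to 50 after the start) in RefSeq, build GRCm38.p6. Capitals mark CTTTC from 5 bases before to 10 bases after the start on the gene's strand, and CCGGAAGT (an ETS-type site; on the opposite strand it reads ACTTCCGG) or CGCATGCG (the core of an NRF1-type site, the same on both strands) on either strand anywhere in the window. A stretch may hold more than 1 of the 3 motifs, and CTTTC was searched only near the start. Each stretch runs from 60 bases before the start to 20 after it, 5′ to 3′ on the gene's strand.
Rpl38 (chr11:114668520-114668599, plus strand): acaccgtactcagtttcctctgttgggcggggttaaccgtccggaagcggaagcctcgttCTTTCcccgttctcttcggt
Rpl7a (chr2:26910747-26910826, plus strand): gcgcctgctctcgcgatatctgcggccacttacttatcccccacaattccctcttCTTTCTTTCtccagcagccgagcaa
Rpl37 (chr15:5116553-5116632, plus strand): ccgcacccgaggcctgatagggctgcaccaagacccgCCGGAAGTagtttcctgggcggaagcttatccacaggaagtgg
Cox8a (chr19:7217597-7217676, minus strand): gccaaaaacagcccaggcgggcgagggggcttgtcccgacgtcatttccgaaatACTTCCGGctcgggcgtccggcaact
Atp5k (chr5:108434380-108434459, minus strand): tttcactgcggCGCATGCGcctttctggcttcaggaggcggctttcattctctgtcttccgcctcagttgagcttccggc
Kmt2d (chr15:98871186-98871265, minus strand): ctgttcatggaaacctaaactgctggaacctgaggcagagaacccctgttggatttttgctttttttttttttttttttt
Bsn (chr9:108190364-108190443, minus strand): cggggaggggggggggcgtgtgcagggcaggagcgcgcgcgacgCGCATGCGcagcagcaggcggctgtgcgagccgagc

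The first 5 of these genes fell and the last 2, a chromatin regulator and a presynaptic scaffold, rose. CTTTC at the start was found in 9 of 60 ribosomal protein windows (15%), in none of 63 respiratory and 22 chromatin regulator windows, in 16 of 504 windows of genes called lower (3.17%), in 10 of 626 of genes called higher (1.60%) and in 177 of all 11812 (1.498%). Windows with CCGGAAGT numbered 12 of 60 for ribosomal proteins (20%), 5 of 31 for proteasome subunits (16.1%), 5 of 63 for respiratory subunits (7.94%), 67 of 504 for all genes called lower (13.3%), 14 of 626 for genes called higher (2.24%) and 871 of all windows (7.37%). CGCATGCG was found in 8 of 63 respiratory windows (12.7%), 2 of 60 ribosomal windows (3.33%), 27 of 504 windows of genes called lower (5.36%), 14 of 626 of genes called higher (2.24%) and 419 of all windows (3.55%). These shares describe letters in the windows and not bound sites. Cox8a and Bsn each held a further match of the same motif outside the stretch shown. The start used by RefSeq lay 56 bases from that in the deposited annotation for Rpl38, 43 bases for Rpl7a and 49 bases for Atp5k, and within 1 base for the other 4 genes, so that exact placement at the start is uncertain for the former.

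Rps7, a protein of the small ribosomal subunit (chr12:28630847-28635953, mm10), was at 38.0, 37.9, 37.2, 40.0 and 34.0 CPM at 14 dpi and at 28.5, 13, 25.7, 15.8 and 13.1 CPM at 28 dpi. Every animal at 28 dpi was thus below every animal at 14 dpi, and the animals A3-1 and A4-1 stood closest to the earlier group. The log2 fold change was -1.02 ± 0.16 (SE, n = 5 per group, adjusted p = 3.5e-05). Rpl38, a protein of the large subunit known for its part in translating Hox transcripts, was at 59.4, 62.5, 61.9, 70.5 and 52.6 CPM and then at 42.7, 21.5, 49.9, 26.2 and 20 CPM (log2 fold change -1.02). Rps6, the ribosomal protein phosphorylated downstream of mTOR, was at 126.9, 131.5, 117.3, 129.2 and 107.6 CPM and then at 79.1, 65.9, 88.7, 56 and 45.6 CPM, a log2 fold change of -0.90 (adjusted p = 2.2e-05). A3-1 and A4-1 were the 2 highest animals at 28 dpi for all 3 genes. Over the whole list, the mean log2 level relative to sham was 0.27, 0.32, 0.32, 0.44 and 0.16 at 14 dpi, and -0.06, -0.67, 0.00, -0.60 and -0.77 at 28 dpi, while the sham animals ranged from -0.44 to 0.29 and the 42 dpi animals from -0.17 to 0.03. The lowest 28 dpi animals were therefore below every sham animal, whereas A3-1 and A4-1 were within the sham range. Of the 31-base stretches in their transcripts, 30.6% in Rps7, 31.6% in Rpl38 and 45.0% in Rps6 also occurred in another gene, most ribosomal protein genes having processed pseudogenes, so part of each value depends on how shared reads were divided.

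Nuclear-encoded respiratory chain genes moved in the same animals. Cox7c, a subunit of cytochrome c oxidase (chr13:86044816-86046904), was at 58.9, 55.3, 60.4, 63.9 and 46.9 CPM at 14 dpi and at 34.8, 20.9, 38.1, 23.4 and 20.8 CPM at 28 dpi, without overlap (log2 fold change -1.08 ± 0.18, SE). Atp5k, a small subunit of ATP synthase, was at 53.3, 58.7, 54.1, 53.1 and 50.7 CPM and then at 35.7, 19.2, 39.7, 22.6 and 18.2 CPM (-1.05). The level at 28 dpi was 0.484 times that at 14 dpi for Cox7c and 0.502 times for Atp5k. Ndufa4, a subunit associated with the same oxidase, fell by 0.91 on the log2 scale (adjusted p = 2.3e-05), and Sdhaf4, an assembly factor of complex II, by 1.14. The list as a whole was at 0.22, 0.30, 0.32, 0.33 and 0.16 relative to sham at 14 dpi and at -0.11, -0.70, -0.03, -0.59 and -0.77 at 28 dpi, and 71 of its 78 genes did not overlap between the time points, against 11.8% of all genes that were lower without overlap. Of 13 proteins encoded by mitochondrial DNA, 6 (46.2%, against 4.22% of all genes) were called lower, with a median of -0.56. Among them mt-Co1, the catalytic subunit of the oxidase, was at 11147.5, 13074, 13644.9, 11754 and 11687.8 CPM at 14 dpi and at 9841.7, 7703.5, 8733.8, 6400.4 and 6103.6 CPM at 28 dpi (-0.68). Of its 31-base stretches 63.9% also occurred in nuclear copies of mitochondrial DNA. Relative to sham, the mitochondrially encoded list was at 0.47, 0.80, 0.67, 0.35 and 0.65 at 14 dpi. At 28 dpi it was at 0.37, 0.26, 0.39, -0.40 and -0.50, and the sham animals ranged from -0.53 to 0.28. A3-3 was thus above the sham mean for this list and below it for the nuclear-encoded list.

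Of 37 proteasome subunits 14 (37.8%, against 4.22% of all genes) were called lower, with a median of -0.52. Without the fold limit, 33 had an adjusted p under 0.05 toward lower values and 1 toward higher values, against 78 of 83 ribosomal and 77 of 78 respiratory genes toward lower values and 21.9% of all genes. Psma2, an alpha subunit of the catalytic core (chr13:14613242-14625671), was at 55.2, 60.8, 58.7, 61.1 and 52.2 CPM at 14 dpi and at 44.1, 29.3, 39.7, 28.8 and 28.0 CPM at 28 dpi. The groups did not overlap, and the log2 fold change was -0.78 ± 0.12 (SE, adjusted p = 2.8e-05). The median longest transcript of the list was 1883 bases, and 7 subunits were called lower once length and GC content were corrected for. The SR and hnRNP splicing factors, which also serve every cell, had a median of -0.21 with 1 of 36 (2.78%, against 7.56% of all genes) called higher and none lower. An adjusted p under 0.05 toward lower values was found for 19 of the 36 and toward higher values for 4.

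**Figure D2:**
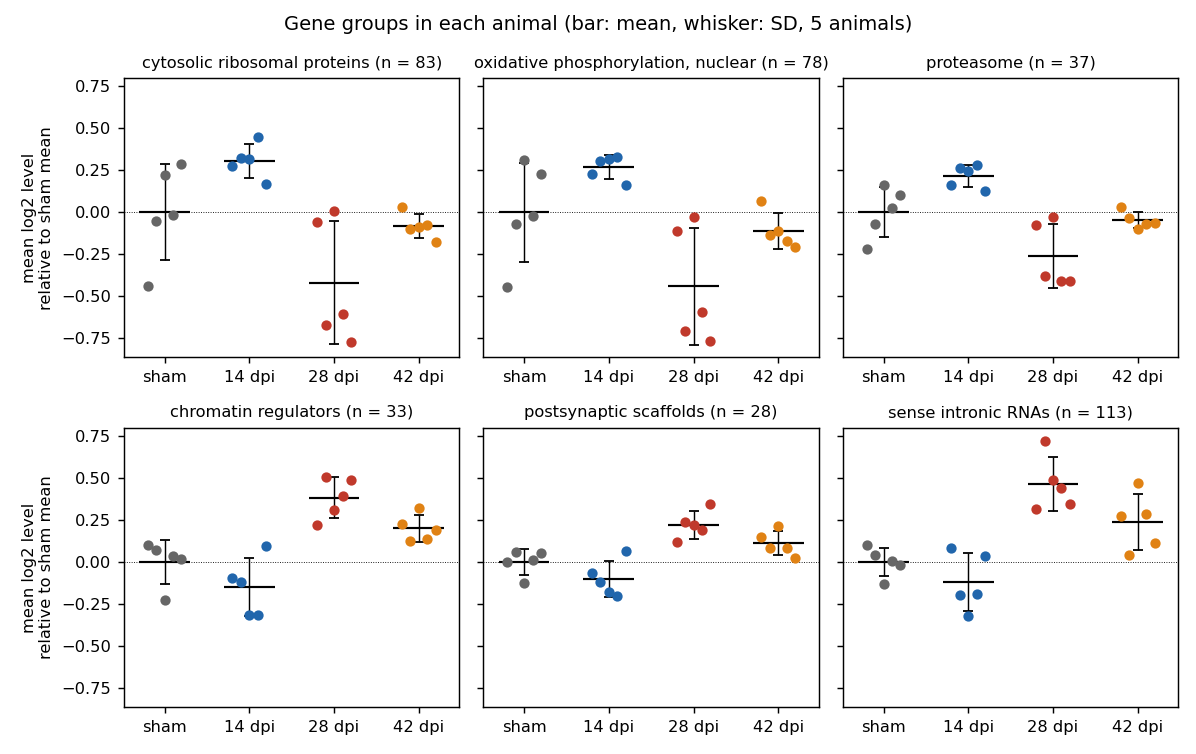
For 6 gene groups, each point is 1 animal's mean log2(value + 0.5) over the group relative to the mean of the sham animals, with sham, 14, 28 and 42 dpi on the x axis and bars for the mean and SD of 5 animals. Ribosomal and respiratory genes reach their highest values at 14 dpi and values of -0.77 at 28 dpi, while chromatin regulators run from -0.32 at 14 dpi to 0.50 at 28 dpi.

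Metallothioneins are small proteins that bind zinc and copper and respond to glucocorticoids and metal load, and the study names both Mt1 and Mt2 in its discussion of late changes. Mt2 (chr8:94172664-94173568) was at 23.2, 36.0, 29.3, 28.2 and 25.8 CPM at 14 dpi and at 18.1, 10.8, 19.2, 14.6 and 9.5 CPM at 28 dpi. All animals at 28 dpi were below all at 14 dpi (log2 fold change -0.99 ± 0.19, SE, adjusted p = 1.7e-04), and Mt1 fell by 0.77 likewise without overlap. Of the 31-base stretches of Mt2 58.1% also occurred in another gene, mostly Gm45774. Of 17 glucocorticoid-responsive genes 3 (17.6%) were called lower, against 4.22% of all genes, and none higher. The largest fall in that list was 0.99, the value of Mt2, so its count is not separate from the metallothioneins. Another of its called genes, the kinase Sgk1, passed narrowly (-0.67, adjusted p = 0.050) and was called in only 10 of 26 alternative settings. S100a10, the S100 family partner of annexin A2 (chr3:93555080-93564643), was at 10.2, 14.6, 18.7, 12.9 and 11.5 CPM and then at 7.4, 5.7, 9.9, 7.4 and 2.7 CPM (-1.06 ± 0.29, SE, adjusted p = 0.0049), also without overlap.

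Neuropeptides of spinal interneurons had 4 of 14 genes called lower (28.6%, against 4.22% of all genes) and none higher, with a median of -0.57. With 1 animal left out the count ranged from 2, without A6-2 or A3-3, to 7, without A5-3. Somatostatin, Sst (chr16:23889581-23890844), which marks excitatory dorsal horn interneurons, was at 9.0, 10.2, 9.0, 10.5 and 9.7 CPM at 14 dpi and at 6.7, 4.4, 8.6, 3.3 and 4.8 CPM at 28 dpi. The 14 dpi animals were tightly grouped and the 28 dpi animals lay below them, with a log2 fold change of -0.81 ± 0.17 (SE, adjusted p = 4.3e-04). Cholecystokinin (Cck), neurotensin (Nts) and galanin (Gal) were also called, at levels of a few CPM or below and with values that overlapped between the time points. The list of transmitter identity genes had no called gene of 14 and a median of -0.07. Besides transporters and enzymes of transmitter use it includes the motor neuron marker Prph, whose -0.70 was its lowest value. Of the 21 neuronal growth-associated genes 2 (9.52%) were called lower and 1 (4.76%) higher, against 4.22% and 7.56% of all genes. The median was -0.32, 12 of the 21 had an adjusted p under 0.05 toward lower values, against 21.9% of all genes, and 5 toward higher values. With 1 animal left out, 2 to 4 genes of this list were called lower and 0 to 1 higher. With equalised sums 7 were called lower without ribosomal RNA and 3 with it. Gap43, the growth cone phosphoprotein, was at 50.4, 46.1, 39.7, 59.7 and 39.7 CPM and then at 40.4, 22.7, 34.8, 23.0 and 23.8 CPM (-0.72), with A3-1 inside the earlier range. Stmn3, a stathmin that regulates microtubules, fell by 0.73 with no overlap, whereas Dcx, a microtubule protein of young neurons, rose by 0.61. The immediate early gene Fos was at 7.1, 7.8, 9.1, 16.1 and 13.7 CPM and then at 4.2, 6.9, 6.0, 6.3 and 7.6 CPM (-0.70, adjusted p = 0.017), the groups overlapping. It was the only one of 15 immediate early genes called, and it lost its call without A6-2, A6-3 or A3-1. With 1 animal left out, between 0 and 4 genes of the list were called lower, the 4 without A5-1, and 1 was called higher without A3-3.

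Among the genes that rose, regulators of chromatin were the list with the largest share of called members among those with at least 20 measured genes. Of 33 such genes 11 rose and none fell, against 7.56% of all genes called higher, the median was 0.45, and 32 of 33 had an adjusted p under 0.05 toward higher values, as did 21% of all genes. Kmt2d, a histone H3 lysine 4 methyltransferase that acts at enhancers (chr15:98831669-98871204), was at 38.5, 41.3, 23.5, 25 and 55.9 CPM at 14 dpi and at 69.6, 110.2, 98.2, 76.1 and 111.3 CPM at 28 dpi. No 28 dpi animal reached down to the highest 14 dpi animal, and the level at 28 dpi was 2.53 times that at 14 dpi (log2 fold change 1.37 ± 0.21, SE, adjusted p = 3.3e-05). Arid1a, a subunit of the SWI/SNF remodeller, rose by 0.92 and Kmt2a, another lysine 4 methyltransferase, by 0.88. The chromatin list was at -0.09, -0.12, -0.32, -0.32 and 0.09 relative to sham at 14 dpi and at 0.22, 0.50, 0.31, 0.39 and 0.48 at 28 dpi. Its highest 14 dpi animal, A6-3, was also the animal with the highest Rn18s-rs5 value. With Rn18s-rs5 as a covariate 9 genes of the list were called, and 14 genes were called without the 2 animals at 14 dpi in which it was high. The list has a median longest transcript of 9179 bases. Once length and GC content were corrected for, its median was 0.10 and 6 of its genes were called, Kmt2a no longer among them, while 7 genes were called with sums equalised without ribosomal RNA and 3 with sums equalised with it. Srrm2, a scaffold of nuclear speckles and the 1 called member of the splicing factor list, was at 226.4, 220, 174.5, 175.7 and 268.6 CPM and then at 329, 400.2, 352, 363.2 and 386.5 CPM (0.80). It lost its call with sums equalised with ribosomal RNA and once length and GC content were corrected for.

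**Figure D3:**
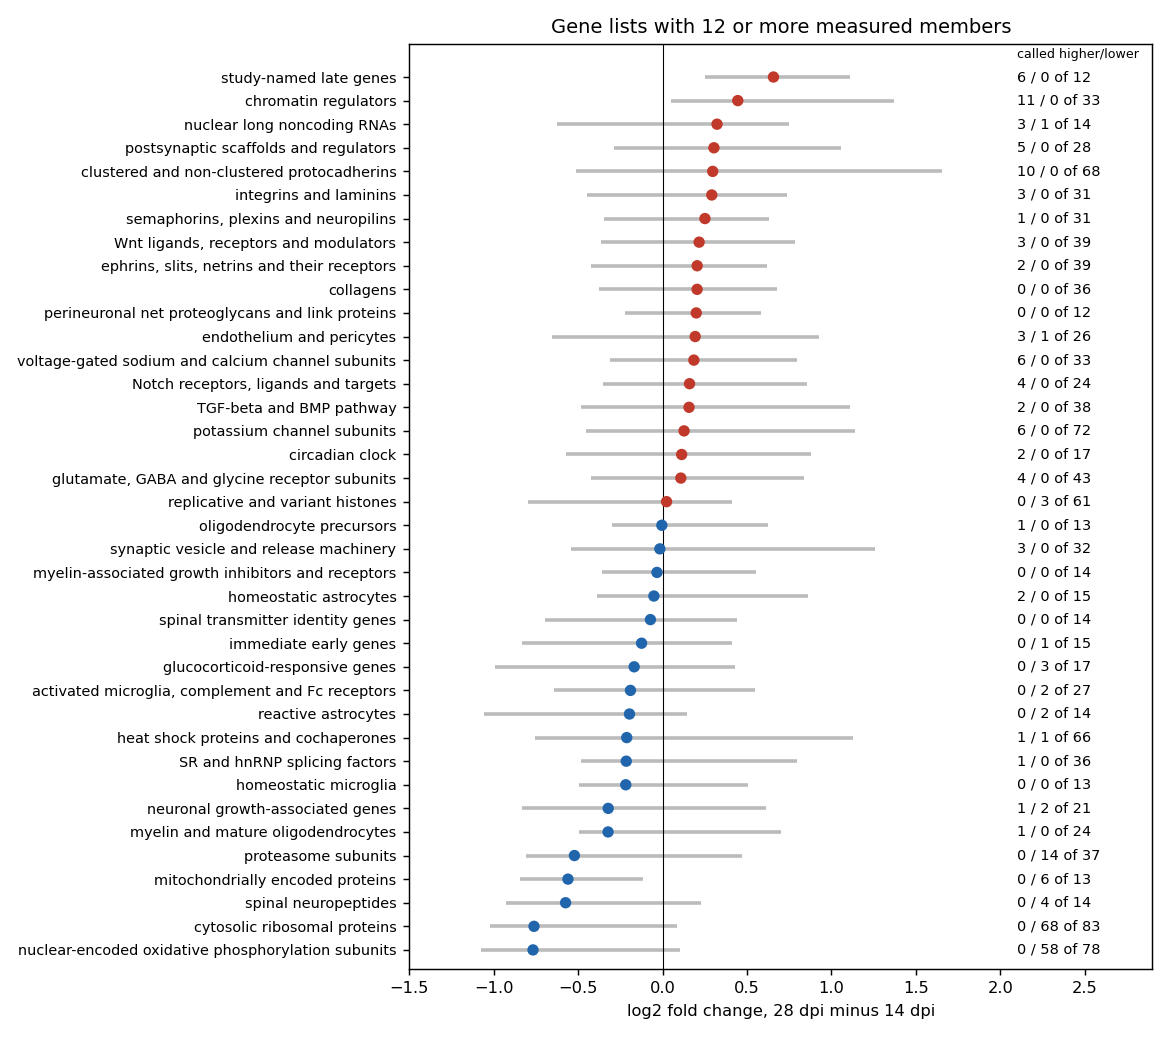
Each line is 1 gene list with at least 12 measured members, with the median log2 fold change from 14 to 28 dpi as a point, the range of its members as a line, and the numbers of members called higher and lower at the right. Ribosomal (-0.76) and respiratory (-0.77) genes lie farthest to the left and the 12 genes taken from those the study named for late time points (0.66) farthest to the right, a list the study chose on these samples.

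RNAs that do not code for protein made up much of the rise. Of the genes called higher 643 (50.1%) were protein-coding, against 656 (91.4%) of the genes called lower and 14439 (85.0%) of all genes. Sense-intronic transcripts, which lie within an intron of another gene on its strand, rose in 61 of 113 cases (54.0%), antisense transcripts in 170 of 601 (28.3%) and intergenic long noncoding RNAs in 206 of 692 (29.8%). In all 3 classes falls were few, at 0, 4 and 5 genes. Over all genes 7.56% were called higher, and not every noncoding class was above this: 0 of 22 small nuclear RNAs, 1 of 41 small nucleolar RNAs and 3 of 50 long RNAs from bidirectional promoters (6%) were called higher. Antisense genes that lay within the span of a protein-coding gene rose in 99 of 249 cases (39.8%), and those not within one in 71 of 352 (20.2%). For processed pseudogenes the same shares were 25 of 130 (19.2%) and 42 of 221 (19.0%), and for intergenic long noncoding RNAs 29 of 65 (44.6%) and 177 of 627 (28.2%). The library kit does not mark strand, so reads from introns of the host gene or from the sense partner cannot be told apart from these transcripts. Sense-intronic genes were at 0.08, -0.19, -0.32, -0.19 and 0.03 relative to sham at 14 dpi and at 0.32, 0.72, 0.49, 0.44 and 0.34 at 28 dpi, so that these groups of animals did not overlap. With ribosomal RNA kept in an equalised sum, the calls fell to 0 sense-intronic, 11 antisense and 9 intergenic genes. Of 14 known nuclear noncoding RNAs, 3 (21.4%) were called higher and 1 (7.14%) lower: Xist by 0.69, the paraspeckle RNA Neat1 by 0.61 and the imprinted antisense RNA Kcnq1ot1 by 0.75, while Gas5, a host of small nucleolar RNAs, fell by 0.63. The direction of Kcnq1ot1 turned once length and GC content were corrected for, and that of Neat1 turned when Rn18s-rs5 was added as a covariate to this correction. Neat1 also lost its call without A6-2 or without A3-3. No gene of the list was called once length and GC content were corrected for, and none was called higher with either equalised sum. Malat1, the most studied of the speckle RNAs, was higher by 0.43 with an adjusted p of 0.0023 but did not pass the fold limit.

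**Figure D4:**
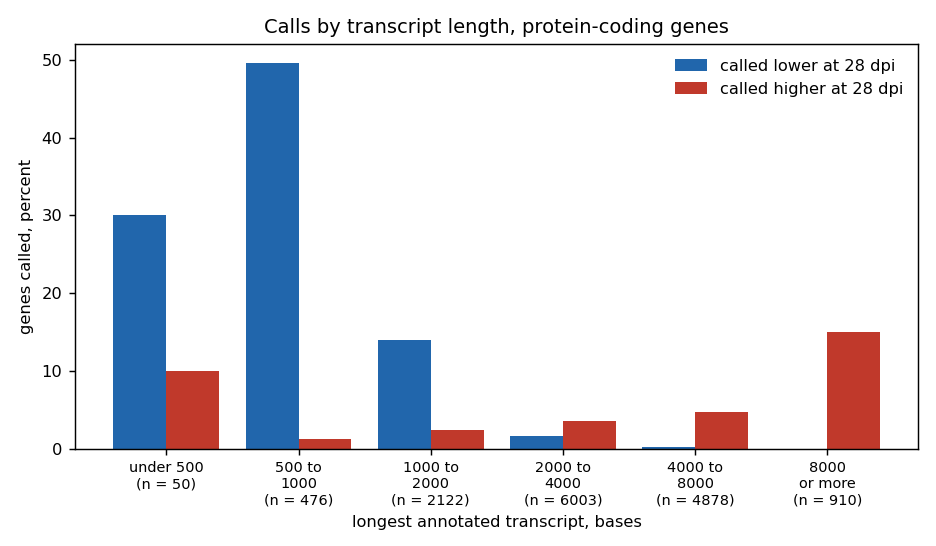
The percent of protein-coding genes called higher and called lower (y axis) is drawn for 6 classes of longest annotated transcript (x axis). Calls toward lower values peak at 49.6% between 500 and 1000 bases and are 0 from 8000 bases on, where 15.1% were called higher.

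Among protein-coding genes of 500 bases or more, the share of genes called lower was smaller in each longer class. Of 50 protein-coding genes under 500 bases 30% fell and 10% rose, with a median log2 fold change of 0.04. Between 500 and 1000 bases 49.6% of 476 genes fell and 1.26% rose, with a median log2 fold change of -0.59. From 1000 to 2000 bases 13.9% fell and 2.40% rose, and from 2000 to 4000 bases 1.65% fell and 3.60% rose. From 4000 to 8000 bases 0.205% fell and 4.67% rose, and of 910 genes of 8000 bases or more none fell and 15.1% rose, with a median of 0.33. The part of length in the gene groups was not tested beyond a correction of all values for length and GC content. Once length and GC content were corrected for, 2 neuropeptide, 1 growth-associated and 1 Notch gene, 5 protocadherins and none of the integrins and laminins were called.

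Scaffolds of the synapse were among the genes called higher. Of 28 rows of postsynaptic scaffolds and regulators 5 (17.9%) were called higher, against 7.56% of all genes, and none lower, with a median of 0.30. Shank1, a master scaffold of glutamatergic synapses (chr7:44310253-44360572), was at 40.1, 42.7, 31.9, 30.2 and 58.5 CPM at 14 dpi and at 65.9, 100.7, 84.4, 72.0 and 96.5 CPM at 28 dpi, with no overlap. Its log2 fold change was 1.06 ± 0.16 (SE, adjusted p = 2.7e-05). The presynaptic list moved both ways, with a median of -0.02: 3 of 32 genes (9.38%, near the share of all genes) were called higher and none lower, and without the fold limit 9 had an adjusted p under 0.05 toward higher and 8 toward lower values. Bsn, which encodes the active zone scaffold bassoon (chr9:108096022-108190384), was at 88.1, 76.7, 59.6, 56.8 and 106.3 CPM and then at 129.8, 185.1, 177.6, 177.8 and 256.0 CPM. The level at 28 dpi was 2.39 times that at 14 dpi (1.26 ± 0.20, SE, adjusted p = 3.5e-05), and its partner Pclo and the vesicle phosphoprotein Syn1 rose by 0.76 and 0.80. Once length and GC content were corrected for, 2 postsynaptic genes were called, and with equalised sums 1 without ribosomal RNA and 0 with it.

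Of 43 glutamate, GABA and glycine receptor subunits 4 (9.30%) were called higher, near the 7.56% of all genes, and none lower, while 6 had an adjusted p under 0.05 toward lower values. Their median of 0.11 turned below 0 with equalised sums and with length and GC content corrected for. With 1 animal left out, 2 to 5 of the receptor subunits were called higher. Grin2b, an NMDA receptor subunit (chr6:135713233-136173511), was at 94.9, 90.2, 78.1, 73.0 and 106.3 CPM at 14 dpi and at 126.9, 176.5, 131.1, 160.5 and 169.4 CPM at 28 dpi. Its groups did not overlap (0.79 ± 0.11, SE, adjusted p = 1.6e-05), and Grin2d rose by 0.84. Grin2b lost its call with sums equalised with ribosomal RNA and once length and GC content were corrected for. Among 33 sodium and calcium channel subunits 6 rose, including the P/Q-type channel Cacna1a by 0.71, the L-type channel Cacna1c by 0.68 and the T-type channel Cacna1i by 0.80. Among 72 potassium channel subunits 6 (8.33%) were called higher, again near the share of all genes, including Kcnj6, an inward rectifier coupled to G proteins, by 0.81. No channel gene of either list was called lower, although 8 potassium channel genes and 1 sodium or calcium channel gene had an adjusted p under 0.05 toward lower values. The sodium and calcium channel list had 0 calls once length and GC content were corrected for. Of 68 protocadherins, adhesion proteins that mark neuronal identity and self-recognition, 10 (14.7%, against 7.56% of all genes) were called higher and none lower, with a median of 0.30. The count was 6 without A5-3 and up to 12 with 1 other animal left out, and with equalised sums it was 3 without ribosomal RNA and 1 with it. Pcdh1, a non-clustered member, was at 20, 19.4, 16.9, 16.6 and 22.6 CPM and then at 26.1, 32.7, 32.7, 33.7 and 37.3 CPM (0.75). The protocadherin list was at -0.06, -0.17, -0.15, -0.09 and -0.06 relative to sham at 14 dpi and at 0.21, 0.28, 0.13, 0.23 and 0.28 at 28 dpi. Clustered protocadherins share 3′ exons, and the called member Pcdha8 shared 68.0% of its 31-base stretches with other genes.

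**Figure D5:**
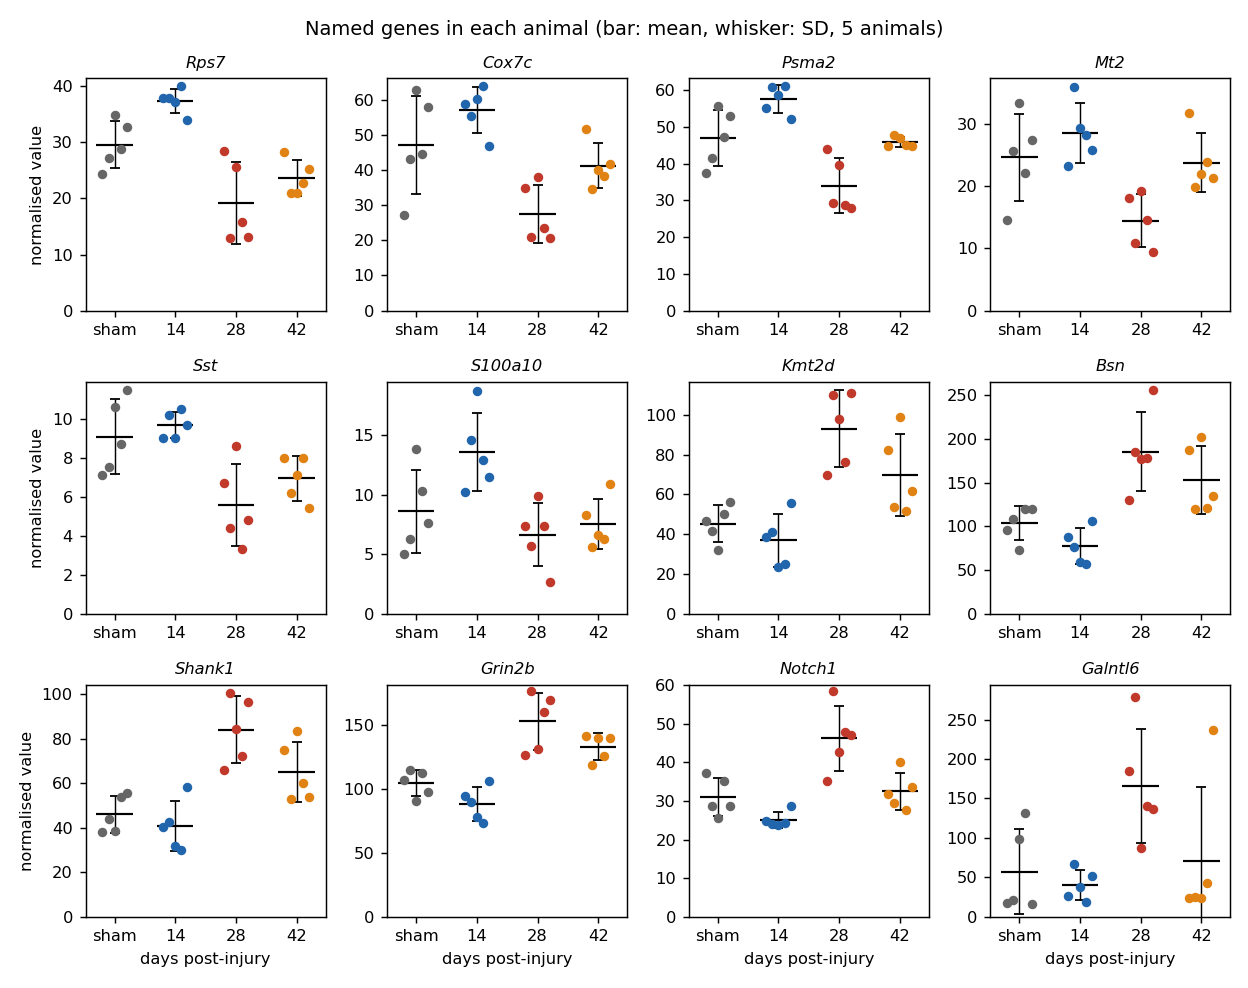
Each panel is 1 gene, with normalised CPM from 0 on the y axis, sham, 14, 28 and 42 dpi on the x axis, 1 point per animal, and bars for the mean and SD of 5 animals. In the panels for Rps7, Cox7c, Psma2, Mt2, Sst and S100a10 every 28 dpi animal is below every 14 dpi animal, and in those for Kmt2d, Bsn, Shank1, Grin2b, Notch1 and Galntl6 every 28 dpi animal is above.

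Signalling pathways that guide axons and set cell fate held single called genes. Of 24 Notch receptors, ligands and targets 4 were called higher and none lower. Notch1, a receptor cut upon contact with its ligands (chr2:26457903-26516663), was at 24.9, 24.0, 23.8, 24.2 and 28.6 CPM at 14 dpi and at 35.2, 58.4, 42.6, 47.9 and 47.0 CPM at 28 dpi. The narrow group at 14 dpi lay below all later values (0.85 ± 0.12, SE, adjusted p = 1.6e-05). Notch3, the receptor of pericytes and smooth muscle, rose by 0.79, Notch2 by 0.60 and the target gene Hes7 by 0.86. Once length and GC content were corrected for, Notch1 and Notch3 lost their calls. Of 31 semaphorins, plexins and neuropilins 1 was called higher (3.23%), of 39 ephrins, slits, netrins and their receptors 2 (5.13%), of 38 genes of the TGF-beta and BMP pathway 2 (5.26%), and of 39 Wnt genes 3 (7.69%), and none lower. These shares are near or below the 7.56% of all genes. With 1 animal left out, the counts ranged from 0 to 3, 0 to 5, 1 to 3 and 3 to 5 for these lists. Without the fold limit, an adjusted p under 0.05 toward higher values was found for 14 of the semaphorin list, 15 of the ephrin list, 13 of the TGF-beta list and 13 of the Wnt list, against 21% of all genes. The called genes of these lists were Plxna1, the ephrin receptor Epha2 (0.62), the ephrin Efna5 (0.60), the BMP ligand Gdf10 (0.61) and the activin receptor Acvr2b (0.76). In the Wnt list they were Apc2 (0.71), Lrp5 (0.67) and Tcf7l1 (0.78). The medians of these lists were 0.25, 0.20, 0.16 and 0.22, that of the Notch list was 0.16, and all 5 fell below 0 with sums equalised with ribosomal RNA. In the extracellular matrix no gene of 36 collagens and 12 perineuronal net components was called. Of 31 integrins and laminins 3 rose: Lama5 by 0.74, Lama3 by 0.62 and Itga4 by 0.59. With 1 animal left out, 2 to 6 integrins and laminins were called higher, and with either equalised sum 0 were. Myelin-associated inhibitors and their receptors had no called gene of 14 and a median of -0.03.

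A list of 12 genes was taken from those the study names for late time points, and since the study chose them on these animals their direction is not independent evidence. Of these 6 (50%, against 7.56% of all genes) were called higher, including Notch3, Lif, Plxna1, Sox9 and Pax2. Pax2, a factor of inhibitory interneurons, rose by 0.97, Sox9, a factor of astrocytes and ependyma, by 0.73, Lif, a cytokine of the interleukin 6 family, by 0.69 and Plxna1, a semaphorin receptor, by 0.63. Lif lost its call without A6-2 or A4-4, and Plxna1 without A4-4. The log2 fold changes of Ntng2 (0.55), Tgfb1 (0.51), Sema6a (0.50), Tgfbr3 (0.41) and Itga3 (0.25) had adjusted p-values under 0.05 but stayed under the fold limit. Ntng2 passed it in 7 of the alternative settings, Tgfb1 in 5, among them leaving out A5-1, A6-3, A4-3 or A4-4, and Sema6a in 2. Gdf7, a BMP ligand, was at 2.0, 11.3, 1.4, 1.6 and 16.5 CPM at 14 dpi and at 11.5, 22.9, 1.9, 13.5 and 9.4 CPM at 28 dpi. It was thus high in the same 6 animals in which Rn18s-rs5 was above 250000, and its change did not pass (1.11 ± 0.53, SE, adjusted p = 0.088), but was called without A5-3, A6-3 or A4-1. As a mean over the 12 genes, the animals were at 0.04, 0.13, -0.07, -0.27 and 0.39 relative to sham at 14 dpi and at 0.50, 1.00, 0.54, 0.66 and 0.80 at 28 dpi. The list had 4 calls once length and GC content were corrected for, 2 with equalised sums without ribosomal RNA and 0 with it.

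Few genes of the glial and vascular lists were called, and beside 7.56% of all genes called higher and 4.22% lower, counts of 1 to 3 genes in lists of this size are given as values only. Gfap, the astrocyte filament protein that rises in reactive gliosis, was at 174.7, 176.5, 203.9, 229.6 and 141.4 CPM at 14 dpi and at 210.8, 175.1, 249.2, 167.2 and 144.8 CPM at 28 dpi, and the 2 time points were not distinguished (0.03 ± 0.24, SE, adjusted p = 0.94). Of 14 genes of reactive astrocytes 2 fell, S100a10 and Gap43, the latter better known from growing axons, and of 15 genes of homeostatic astrocytes 2 rose: Sox9 and Atp1b2, the beta subunit of the astrocytic sodium pump (0.86). Of 27 genes of activated microglia, complement and Fc receptors 2 fell, the lipoprotein Apoe by 0.64 and the protease Ctss by 0.64. Their values overlapped between the time points. Apoe lost its call without A3-3, A4-3 or A4-4, and Ctss without any of these, A5-1 or A6-2. With 1 animal left out, 0 to 6 genes of the list were called lower and 0 to 1 higher. Relative to sham this list was at 0.68, 0.27, 0.61, 0.74 and 0.35 at 14 dpi and at 0.66, 0.21, 0.84, 0.02 and 0.03 at 28 dpi, so that 2 later animals stood with the earlier group and 3 below it. None of 13 homeostatic microglia genes was called. Of 24 genes of myelin and mature oligodendrocytes 13 had an adjusted p under 0.05 toward lower values (21.9% of all genes) without any called lower, the median was -0.32, and Myrf, the master factor of myelination with a long transcript, rose by 0.70. Myrf lost its call with either equalised sum and once length and GC content were corrected for. Of 26 genes of endothelium and pericytes 3 rose and 1 fell. The gene that fell was Ly6c1, an antigen of capillary endothelium (-0.65), and the pericyte proteoglycan Cspg4 rose by 0.62. Vwf, the clotting factor of endothelium, was at 7.5, 5.2, 6.0, 5.4 and 7.3 CPM and then at 9.0, 15.1, 11.8, 14.1 and 12.1 CPM (0.92). Outside this list, the basement membrane proteoglycan Hspg2 rose by 1.12. The summed endothelial markers ranged from 59.5 to 86.6 CPM at 14 dpi and from 72.3 to 125.1 CPM at 28 dpi.

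Among rises without overlap, the largest in a gene whose name is not a predicted or clone name was that of Galntl6. Galntl6, a glycosyltransferase-like gene (chr8:57774052-58912640), was at 26.1, 67.3, 37.9, 19.2 and 51.6 CPM at 14 dpi and at 185.3, 279.2, 86.6, 140.9 and 136.7 CPM at 28 dpi. It rose by 2.05 ± 0.60 (log2, SE, adjusted p = 0.0065), but 2 sham animals stood at 98.0 and 131.0 CPM and the other 3 at 16.5 to 21.6, and 1 animal at 42 dpi, A3-4, at 237.1 CPM against 23.7 to 42.7 in the other 4. The 2 highest animals at 28 dpi, A3-1 and A3-3, share the label unit A3 with that animal. The homeobox gene Obox3 (1.78), the antizyme gene Oaz3 (1.54) and AA465934 (1.53) were likewise highest in A3-3 at 28 dpi. Musk, the receptor kinase of the neuromuscular junction, rose by 1.48, the phosphatase gene Dusp23 by 1.36 and Hoxb1 by 1.29, all highest in A3-3. Of the 31-base stretches of Oaz3 54.1% and of those of Obox3 31.2% also occurred in other genes. In all 6 of these genes the same 2 sham animals, A12-1 and A12-2, were above the other 3, and A3-4 was the highest at 42 dpi. Dusp23, for example, was at 5.4, 5.8, 21.2, 25.6 and 5.1 CPM in sham and at 48.2 CPM in A3-4 against 5.8 to 9.0 CPM in the other 42 dpi animals. Obox3, Musk, Dusp23 and Hoxb1 each lost the call without A3-3 or without A6-2. Dnah11, an axonemal dynein of motile cilia, was at 2.7, 1.8, 1.2, 3.0 and 1.1 CPM and then at 6.2, 2.6, 11, 16.2 and 6.2 CPM (1.72), with overlap, and Cfap54, a protein of the central apparatus of cilia, rose by 1.45. Of 5 genes of ependyma Dnah11 was the only one called, and the summed ependymal markers, none of 3 called, were at 17.5 to 22.6 CPM at 14 dpi and 20 to 29.6 CPM at 28 dpi. Ependymal cells line the central canal beside the dissected layers, and Dnah11 also varied among sham animals from 0.9 to 8.7 CPM, and the part of these cells in the rise was not tested.

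Over all genes, including predicted ones, the rises without overlap ranked highest by log2 fold change were in Rn7s6, Gm28635 and Gm43972, the last at 2.06 beside 2.05 for Galntl6, and the largest falls, without overlap, in Gm10131, Gm28437 and Gm8206. Rn7s6, a copy of the 7SL RNA of the signal recognition particle (chr6:69516339-69516629), was at 0.3, 0.2, 0.1, 0.1 and 0.2 CPM at 14 dpi and at 2.6, 3.5, 2.1, 6.7 and 3.8 CPM at 28 dpi. The sham animals, at 2.8 to 5.2 CPM, stood with the later group, so the change was that of a low level at 14 dpi. Of its 31-base stretches 56.3% occurred in other genes. Gm28635 shared 94.7% of its stretches with Ctnnd1 and Gm43972 all of them with other genes, while Gm10131 shared 95.5%, with Erh, Gm28437 100%, with mt-Co3, and Gm8206 91.3% with several predicted genes. The values of these 5 genes therefore depend on how reads were divided between near-identical copies, and are uncertain.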

How the data were processed

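Intermediate laminae of denervated cervical cord from 29 mice in 6 groups were analysed. Reads came from single-end libraries made with a kit that does not mark strand after ribosomal RNA depletion. According to the methods and the labels, the authors quantified transcripts with Salmon, summarised them to genes and normalised them with edgeR 3.14.0 in R 3.4.1. The deposited values are normalised CPM rounded to 0.1, treated here as a score because whole reads could not be recovered; depth and counting intervals are therefore unknown. Every column was matched to an animal, and 1 of 30 labelled animals (4 dpi) was not analysed here.

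Log2(value + 0.5) was fitted with limma 3.58.1 (R 4.3.3) over all 29 animals with 1 mean per group and a mean-dependent prior variance. Benjamini-Hochberg adjustment ran over all 16995 genes, and a gene was called where its adjusted p was under 0.05 and it changed more than 1.5 times. Single values were compared by two-sided exact permutation tests, whose smallest p for 5 against 5 is 0.00794. Gene lists (45, of which 44 had a measured member) are described by counts and medians without a set test. Levels of a list are means of log2(value + 0.5) relative to sham. The labels do not say that animals shared a culture, litter or day.

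Genes were named by rule: the 10 largest rises and falls without overlap and with a mean of at least 1, the 3 largest of all genes in each direction, up to 4 called genes per list by adjusted p, 12 genes the study names for late changes and cell type markers; from these, those that serve the description are printed. A few genes that the rule names are not reported here. Genes and lists were chosen with earlier results of these data known, and a few members were chosen after their values were seen. Transcript lengths, coordinates and shared 31-base stretches were taken from the GENCODE M21 annotation on mm10, in which 16919 genes were found. Counts of called genes were recomputed under 25 other settings and 4 more chosen after seeing the data, lists and genes under the 26 of these that change the fit, and library measures with each of the 10 animals left out. Columns with the authors' own fold changes and p-values against sham were not used. On simulated data with 200 changed genes of 16995, 90.5% were recovered at a log2 change of 0.8 and 99.5% at 1.5. Other genes were called in 5 and 2 cases. The simulated noise was independent between genes, so differences shared by a whole library, as in these animals, were not part of this check.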

Additional observations from a re-analysis of the deposited data

Results flagged for a closer look

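In 174 groups of 5 animals, single animals stood apart from the rest by Dixon's 95% criterion (a gap above 0.71 of the range) in 12, where chance alone flags about 1 in 20. At 28 dpi these were Prl in A4-1 (7.7 CPM, others 0.1 to 1.7), Gal in A4-1 (1.0 CPM), Gm8206 in A4-1 (0.7 CPM), Dusp23 in A3-3 (52.8 CPM), Musk in A3-3 (7.7 CPM) and Neat1 in A3-3 (552.1 CPM). At 14 dpi they were Sdhaf4 in A5-3 (8.5 CPM), AA465934 in A5-3 (3.6 CPM), Notch1 in A6-3 (28.6 CPM), Rpl39 in A6-3 (20.5 CPM, the lowest), Lif in A6-2 (0.4 CPM, the lowest) and Neat1 in A6-2 (139.9 CPM, the lowest). Prl encodes prolactin, a hormone of the pituitary, which is not part of the dissected tissue, and its difference between the time points was not called. The animal A3-3 also had the highest Rn18s-rs5 value at 28 dpi.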

How the results depend on the processing

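The table of 2002 called genes was recomputed under 25 other settings and 4 more chosen after seeing the data. The total ranged from 1557 (without A3-3) to 2499 (without A3-1) when 1 animal was left out, with 1009 to 1493 genes called higher and 536 to 1006 lower. With a pseudocount of 1, 839 genes were higher. With sums equalised without ribosomal RNA 445 were higher and 1690 lower, and with it 716 were called, 81 of them higher; quantile normalization gave 859 higher and 831 lower (50.8% higher against 64.1%), and the cause was not tested. Correction for length and GC content left 438 lower, and 368 with an added Rn18s-rs5 covariate. Between the animals high in Rn18s-rs5 alone (2 at 14 dpi, 4 at 28 dpi) 807 were higher and 873 lower. Without a fold limit 7301 were called, 3575 higher and 3726 lower, and at a fold of 2, 153, 130 higher and 23 lower, by construction. Over 83 genes shown by animal, 1984 of 2155 values kept direction and side of the threshold, 146 lost the call, 22 gained it and 3 turned: Neat1 to -0.041 with length, GC and Rn18s-rs5, and Kcnq1ot1 to -0.32 with length and GC and to -0.30 with Rn18s-rs5 added. The Rn18s-rs5 difference of 90328.1 ranged from -11610.4 (without A3-3) to 224504 with 1 animal left out. The share of the summed values in mitochondrially encoded proteins, lower by 0.987 points at 28 dpi (exact permutation test, p = 0.0714), ranged from -1.27 (without A6-3) to -0.742, and that of ribosomal proteins, lower by 0.253 points (exact permutation p = 0.0714), from -0.329 (without A6-3) to -0.193; both passed without A6-3 (exact p = 0.0317) or A4-1. Without A4-1 these were -1.26 and -0.324. No paired analysis was possible because the labels share no replicate numbers between the time points; a random block for the first part of the animal labels gave 2038 called genes. Depth limits are unknown without read counts, and values below 1 CPM hold few rounding steps of 0.1.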

Other observations

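Some gene groups outside the main comparisons held single called genes. Of 17 circadian clock genes 2 were called higher (11.8%, against 7.56% of all genes), Npas2 by 0.88 and Nr1d1 by 0.74, and the median of 0.11 turned below 0 with equalised sums and with length and GC content corrected for. Of 61 histone genes 3 (4.92%, near the 4.22% of all genes) were called lower, the variant H2afz by 0.80, the replication-independent H3f3a by 0.69 and Hist1h2bc by 0.60, with a median of 0.02. H2afz was at 39.2, 37.9, 40.3, 43.3 and 35.6 CPM at 14 dpi and at 28.6, 12.6, 28.2, 25.1 and 21.5 CPM at 28 dpi, without overlap. Of 66 genes with the name pattern of heat shock proteins 1 fell, the mitochondrial chaperonin Hspe1 by 0.75, and 1 rose, Hspg2, which matches by name only and encodes a matrix proteoglycan. An adjusted p under 0.05 (limma, Benjamini-Hochberg) was found for 29 of the 66 toward lower and 6 toward higher values.

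Among 13 genes of oligodendrocyte precursors 1 rose, Cspg4 by 0.62, with a median of 0.00. The matrix inhibitor Mgp, of the 9 genes of fibroblasts and meninges, fell by 0.79, with the summed fibroblast markers at 29.9 to 35.8 CPM at 14 dpi and 29.6 to 37.4 CPM at 28 dpi. Of 5 red cell genes Alas2 rose by 0.76, and of 3 genes of T and B cells Cd8a rose by 0.61 with overlap. None of 2 Schwann cell and 3 pituitary genes was called, and no gene of the skeletal muscle list was analysed here.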
